A study of Mus musculus with 22 samples.

Results

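T cell genes are the 10 genes Cd3d, Cd3e, Cd3g, Cd4, Cd8a, Cd8b1, Ccr7, Lef1, Tcf7 and Foxp3, taken by symbol from 52526 gene symbols measured in mammary tissue of 22 mice. T cells sense antigen through a receptor whose signal is passed on by the CD3 chains, and they divide into CD4 helper cells, CD8 killer cells and FOXP3 regulatory cells. Naive T cells, which have not yet met antigen, keep CCR7, LEF1 and TCF7 and circulate between blood and lymph nodes, where they lie beside B cells. Resting mammary tissue holds few scattered T cells, and the inguinal fat pad of the mouse, in which the left 4th gland lies, also encloses a lymph node.

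The study asked how mammary tissue differs with voluntary wheel running soon after cancer cells arrive, and whether phagocytes take part in it. All mice were female C57BL/6J, 7 to 8 weeks old, and were housed for 2 weeks with a wheel to run on or, as controls, with its hub shelter alone. Liposomes were filled with PBS or with clodronate, which is toxic to phagocytes once they have swallowed it, and were injected into a vein 24 h before and again at the engraftment of 100000 EO771 mouse mammary cancer cells that express firefly luciferase, and the tissue with the engrafted cells was taken 24 h later. The 4 groups held 6 mice each with PBS liposomes (control PBS and wheel PBS) and 5 mice each with clodronate liposomes (control clodronate and wheel clodronate), with 1 library per mouse, and mice are numbered here by their order within a group. Libraries were 3′ tag libraries of total RNA and held 13256467 to 20484578 reads. Values are in CPM, the reads of a gene scaled to the same total of reads in each library, and any value below 1 CPM was deposited as 1. This floor equals 13 reads in the smallest library and 20 in the largest, and a gene listed at it may be present below this limit of detection. Adipocyte genes such as Adipoq and Fabp4 and the epithelial keratins Krt8 and Krt18 were above the floor in 22 of 22 mice, which fits tissue labelled as mammary. In bulk tissue, fewer T cells and less of a transcript per T cell cannot be told apart.

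Across the groups, 5 mice stood apart from the other 17: control PBS mouse 2, wheel PBS mouse 3 and wheel clodronate mice 3, 4 and 5. All 10 genes were above the floor in each of these 5 mice. No other mouse had more than 6 of the 10 above it, and control PBS mouse 1 and wheel PBS mouse 1 had 0. The summed level of the 10 genes, with genes at the floor counted as 0, was 169.8 CPM in control PBS mouse 2, 182.1 in wheel PBS mouse 3, and 329.5, 347.2 and 231.2 in wheel clodronate mice 3, 4 and 5. The next highest sum was 33.7 CPM, in control PBS mouse 4, and most of it was Lef1.

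Cd3d, Cd3e and Cd3g encode the 3 CD3 chains. Their genes lie together on chromosome 9 of GRCm38, Cd3g at chr9:44969572-44980431 on the minus strand, Cd3d at chr9:44981786-44987339 on the plus strand and Cd3e at chr9:44998740-45009627 on the minus strand. The starts of Cd3d and Cd3g face away from each other and are 1355 bases apart. Promoter windows of RefSeq (GRCm38.p6, 250 bases before to 50 after a start) matched 7 of the 10 genes, and those of the CD3 genes are shown because the 3 neighbours were high in the same mice. Capitals mark CTTTGA (the core that TCF and LEF factors bind) and AGGAAG (an ETS core) on either strand, and TGTGGT (a RUNX core) was searched in the same way. No matches overlapped.
Cd3d, chr9:44981536-44981835, plus strand: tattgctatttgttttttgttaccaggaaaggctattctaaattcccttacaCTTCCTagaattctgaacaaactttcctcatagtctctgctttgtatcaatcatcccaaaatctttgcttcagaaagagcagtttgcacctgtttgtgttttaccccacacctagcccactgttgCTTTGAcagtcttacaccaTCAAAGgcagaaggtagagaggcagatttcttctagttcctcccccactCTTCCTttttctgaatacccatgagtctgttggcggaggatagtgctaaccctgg
Cd3e, chr9:45009562-45009861, minus strand: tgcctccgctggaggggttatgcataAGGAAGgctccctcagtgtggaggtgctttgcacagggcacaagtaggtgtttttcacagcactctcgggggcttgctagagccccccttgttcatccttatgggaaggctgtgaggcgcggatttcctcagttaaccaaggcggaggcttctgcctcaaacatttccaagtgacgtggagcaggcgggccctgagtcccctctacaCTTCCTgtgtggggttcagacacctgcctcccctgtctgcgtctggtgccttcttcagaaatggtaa
Cd3g, chr9:44980382-44980681, minus strand: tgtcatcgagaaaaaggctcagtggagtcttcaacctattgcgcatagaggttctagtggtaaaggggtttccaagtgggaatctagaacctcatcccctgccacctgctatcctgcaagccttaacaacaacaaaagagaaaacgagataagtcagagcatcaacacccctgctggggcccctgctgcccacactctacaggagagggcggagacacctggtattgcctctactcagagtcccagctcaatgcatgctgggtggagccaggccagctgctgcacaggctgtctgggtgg
The Cd3d window held 2 matches to CTTTGA and 2 to AGGAAG, the Cd3e window 2 to AGGAAG, and the Cd3g window no match to any of the 3 motifs. Of 32851 windows of all genes, 5257 held CTTTGA, 5506 TGTGGT (16.8%) and 11613 AGGAAG (35.4%). A match describes letters in the window and not a bound site.

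Cd3d, the CD3 delta chain, was at the floor in 5 of 6 control PBS mice and at 27.8 CPM in mouse 2. In the wheel PBS group its lowest value was 1, its median 1.10 and its highest 32.9 CPM, in mouse 3. Control clodronate mice 1 to 5 had 1, 3.11, 1.60, 1 and 1 CPM. Wheel clodronate mice 1 to 5 had 1, 1.92, 54.2, 49.0 and 34.7 CPM, so that 3 of these 5 mice lay above every mouse of the other groups and the other 2 lay within the control clodronate range. The lowest of the 5 high mice was 8.94 times the sixth, the widest such gap among the members after Cd8b1.

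Cd3e, the CD3 epsilon chain and a part of every T cell receptor complex, was detected most widely, in 15 of 22 mice. Its lowest, median and highest values were 1, 1.91 and 19.8 CPM in control PBS mice and 1, 1.54 and 15.8 CPM in wheel PBS mice. Control clodronate mice 1 to 5 had 1.90, 3.35, 5.65, 1 and 2.41 CPM, and wheel clodronate mice 1 to 5 had 1, 5.25, 34.1, 37.8 and 18.1 CPM. The same 5 mice were the highest, the lowest of them at 15.8 CPM and the sixth mouse of all, control clodronate mouse 3, at 5.65 CPM. Cd3g, the gamma chain, reached 6.53 to 15.1 CPM in the 5 mice and at most 3.01 CPM elsewhere.

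Cd4 (chr6:124864692-124888221), the helper cell coreceptor, was above the floor in 8 mice. It was at 13.7 CPM in control PBS mouse 2, at 8.41 in wheel PBS mouse 3 and at 31.0, 30.6 and 22.4 CPM in wheel clodronate mice 3, 4 and 5, and it did not pass 2.21 CPM in any other mouse. Cd8a and Cd8b1 encode both chains of the killer cell coreceptor and lie side by side (chr6:71373427-71379173 and chr6:71322788-71337494), with starts 50639 bases apart. Cd8a was at 15.96 CPM in control PBS mouse 2, 23.0 in wheel PBS mouse 3 and 30.8, 33.0 and 20.5 CPM in wheel clodronate mice 3, 4 and 5, against at most 2.64 CPM elsewhere. Cd8b1 was at 24.9, 15.4, 41.5, 45.3 and 37.3 CPM in these mice in the same order and above the floor in only 1 other, wheel PBS mouse 4, at 1.70 CPM. Its lowest high mouse was 9.09 times the sixth.

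Ccr7, the receptor that brings naive T cells and mature dendritic cells into lymph nodes, ranged from 14.9 to 40.3 CPM in the 5 mice and reached 4.63 CPM in control PBS mouse 6. Tcf7, a transcription factor of naive and memory T cells, ranged from 21.3 to 39.6 CPM in the 5 mice and did not pass 2.52 CPM in the others, although 9 of the other 17 were above the floor. Lef1, its close relative, was at 23.5 to 54.4 CPM in the 5 mice but also at 27.6 CPM in control PBS mouse 4, in which Cd3d, Cd4 and Cd8a were at the floor and Tcf7 was at 2.52 CPM. Lef1 made up 91.7% of the 515 Lef1 and Tcf7 reads of that mouse (95% exact binomial interval 88.9 to 93.9) and 48.9% to 58.0% in the 5 high mice. Lef1 also acts in hair follicle and mammary epithelium, and the basal keratin Krt14 was at 582.3 CPM in control PBS mouse 4. Krt14 was higher in control clodronate mice 2 and 3 and wheel PBS mouse 5, at 1222, 1946 and 656.1 CPM, where Lef1 was at 1, 1.54 and 1 CPM. The part of epithelium in this Lef1 value was not tested.

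Foxp3, the master factor of regulatory T cells, was above the floor in 6 mice. It was at 4.81 CPM (64 reads) in wheel PBS mouse 3, at 3.10, 3.04 and 7.14 CPM in wheel clodronate mice 3, 4 and 5, and at 1.04 CPM in control PBS mice 2 and 5, which is 17 and 18 reads. The other 16 mice were at the floor. Control PBS mouse 2 was therefore high for the other 9 genes and barely detected for Foxp3.

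**Figure D1:**
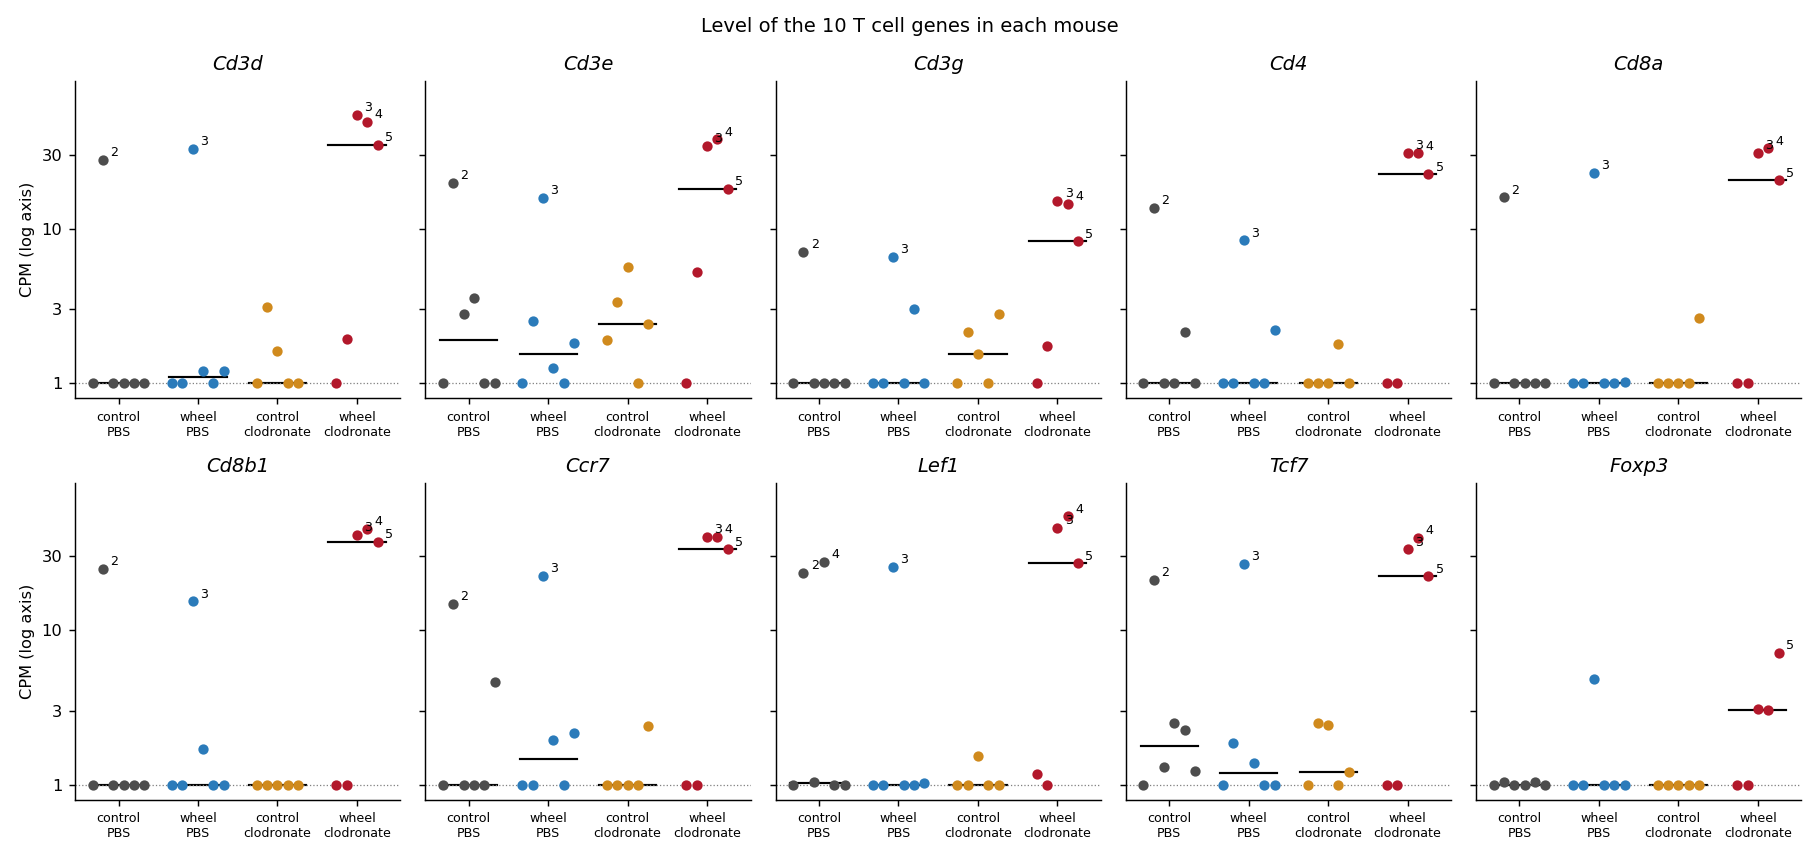
Level of each of the 10 T cell genes in CPM (log axis) in every mouse, by group, with lines at the group medians, a dotted line at the floor of 1 CPM and mouse numbers beside values over 6 CPM. Control PBS mouse 2, wheel PBS mouse 3 and wheel clodronate mice 3, 4 and 5 carry the high values of 9 genes, and Lef1 is also high in control PBS mouse 4.

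Of the 15138 genes tested, each above the floor in 5 mice or more, 392 (2.59%) had the same 5 highest mice as Cd3e, and 134 (0.885%) also had the lowest of these 5 mice at least 2 times above the next mouse. Cd3e counted by construction, and 7 of the other 9 members, all but Lef1 and Foxp3, met both conditions. A gene above the floor in just these 5 mice shares them by construction. This holds for 3 of the 10 B cell genes, Cd79a, Cr2 and Cd22, and the other 7 met both conditions as well. Besides the CD3 chains, 3 of 5 genes of the T cell receptor complex did, and so did 7 of the 10 signalling and costimulation genes above the floor in 6 mice or more. None of the 8 macrophage, 6 adipocyte, 6 mammary epithelium, 4 skeletal muscle and 3 red blood cell genes met the first condition, nor did the 2 NK cell and 3 helper programme genes tested. Of 7 dendritic cell genes 1 met it, the chemokine gene Ccl22, at 5.59 to 13.3 CPM in the 5 mice and at most 4.21 CPM elsewhere.

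Of the T cell receptor genes outside the CD3 chains, Trbc1, Trbc2, Trac and Cd247 had the same 5 highest mice. Trdc, the constant part of the delta chain of gamma delta T cells, named after its values were seen, did not, and was highest in wheel clodronate mouse 2, at 12.1 CPM. Trbc2, a constant part of the receptor beta chain, was at 79.3 CPM in control PBS mouse 2, 77.7 in wheel PBS mouse 3 and 206.2, 165.0 and 96.4 CPM in wheel clodronate mice 3, 4 and 5, against at most 28.1 CPM elsewhere. Trac, that of the alpha chain, ranged from 31.3 to 65.7 CPM in the 5 mice and reached 3.89 CPM in the others. Cd247, the zeta chain, ranged from 13.97 to 32.0 CPM in the 5 mice and reached 9.47 CPM elsewhere. Of the signalling genes, Lck, the kinase that starts the receptor signal, reached 17.4 CPM or more in the 5 mice and 6.28 CPM elsewhere, and Cd2, an adhesion receptor, 17.1 CPM or more and 4.25 CPM. Cd27, a costimulatory receptor of T and B cells, ranged from 10.97 to 35.4 CPM in the 5 mice and did not pass 1.96 CPM elsewhere. Bcl11b, the signalling gene of highest mean (50.4 CPM), did not follow and was highest in control clodronate mouse 3, at 145.3 CPM.

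Genes of other T cell states differed in how far they followed. Of the 9 naive and homing genes, 5 had the same 5 highest mice, Ccr7, Tcf7, Il7r and Satb1 among them. Satb1, a chromatin organiser of developing T cells, was at 59.7 CPM or more in the 5 mice and at most 36.3 CPM elsewhere. Klf2 and S1pr1, which vessel walls also express, followed in part. Klf2 was at 152.6 and 117.7 CPM in wheel clodronate mice 4 and 5 and at 120.5 CPM in wheel PBS mouse 3. Its highest control PBS value, 79.4 CPM, was in mouse 6 and not in mouse 2. S1pr1 was highest in wheel clodronate mouse 4, at 74.4 CPM, but in the PBS groups it was highest in control mouse 5 and wheel mouse 1. Dapl1 was highest in wheel clodronate mouse 2, at 409.8 CPM, and next in wheel PBS mouse 5, at 395.2 CPM, both outside the 5 high mice. Which cells gave these Dapl1 values was not tested. Of the regulatory genes, Icos, a costimulatory receptor, ranged from 11.04 to 28.7 CPM in the 5 mice against at most 2.83 CPM elsewhere, and Il2ra had the same 5 highest mice, but Ikzf2 was highest in control clodronate mouse 2, at 45.5 CPM, and Tnfrsf18 in wheel PBS mouse 5, at 15.02 CPM. Ccl5, a chemokine of memory T cells and NK cells, was at 57.0 to 151.6 CPM in the 5 mice and at most 22.2 CPM elsewhere. Nkg7, a granule protein, and Cxcr6, a chemokine receptor, had the same 5 highest mice with narrower gaps, 7.51 against 7.15 CPM and 5.41 against 3.00 CPM. Gzma, a granzyme, was above the floor in 14 mice and did not pass 7.78 CPM. The granzymes Gzmb and Gzmk were at the floor in 22 of 22 mice, and Ifng was above it in 1, at 1.28 CPM. Of the helper programme genes Il4, Il17a and Il21 were at the floor in all 22 mice, while Gata3 and Bcl6, which epithelium, fat or other cells also express, were above it in all 22 and did not share the order of mice. Of 5 genes of T cell inhibition, Tox, a nuclear factor, was above the floor in 16 mice and highest, at 16.4 CPM, in wheel clodronate mouse 4, with the same 5 highest mice (3.76 CPM or more against at most 2.89). The inhibitory receptor genes Pdcd1, Havcr2 and Lag3 did not pass 1.89 CPM, and Tigit was at the floor in every mouse.

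B cell genes were high in the same 5 mice. All 10 of the list were above the floor in the 5 mice, and no other mouse had more than 3. Their summed level was 280.2 CPM in control PBS mouse 2, 298.6 in wheel PBS mouse 3 and 818.2, 886.8 and 550.1 CPM in wheel clodronate mice 3, 4 and 5, against at most 5.18 CPM elsewhere. Ms4a1, the surface protein CD20, was the most abundant by mean, at 49.7 to 145.9 CPM in the 5 mice and at most 1.98 CPM in the others. Fcmr, the IgM Fc receptor, was at 45.3 to 142.4 CPM against at most 1.33, Cd79b, a chain of the B cell receptor, at 32.3 to 143.5 CPM against 2.10, and Cr2, complement receptor 2 of B cells and follicular dendritic cells, at 39.5 to 120.0 CPM against the floor in all the others.

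Genes of lymph node stroma were high there in part. Cxcl13, the chemokine that draws B cells into follicles, was at 22.5 CPM in control PBS mouse 2, 37.9 in wheel PBS mouse 3 and 70.9, 92.2 and 35.2 CPM in wheel clodronate mice 3, 4 and 5, against at most 2.19 CPM elsewhere. Chst4, an enzyme of high endothelial venules, through which lymphocytes enter lymph nodes, was above the floor in 4 mice, at 9.76 CPM in wheel PBS mouse 3, 2.92 in control PBS mouse 2 and 1.94 and 1.09 CPM in wheel clodronate mice 3 and 4. Madcam1 did not pass 2.03 CPM. Ccl21a and Ccl19, whose near-identical copies can lose reads to multimapping, were at the floor in every mouse. The most abundant genes among the 134 were looked up after their values were seen. They were Igkc, Shisa5, Glycam1 and Ptprc, of which Glycam1, a mucin of high endothelial venules that milk-producing epithelium also makes, was at 436.3 to 984.9 CPM in the 5 mice and at most 4.78 CPM in the others. The milk protein genes Csn2 and Wap, also looked up afterwards, were at the floor in 22 of 22 mice. The sources used here do not state whether the inguinal lymph node was part of the tissue collected. The part of lymph node tissue in the T cell gene values was not tested.

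**Figure D2:**
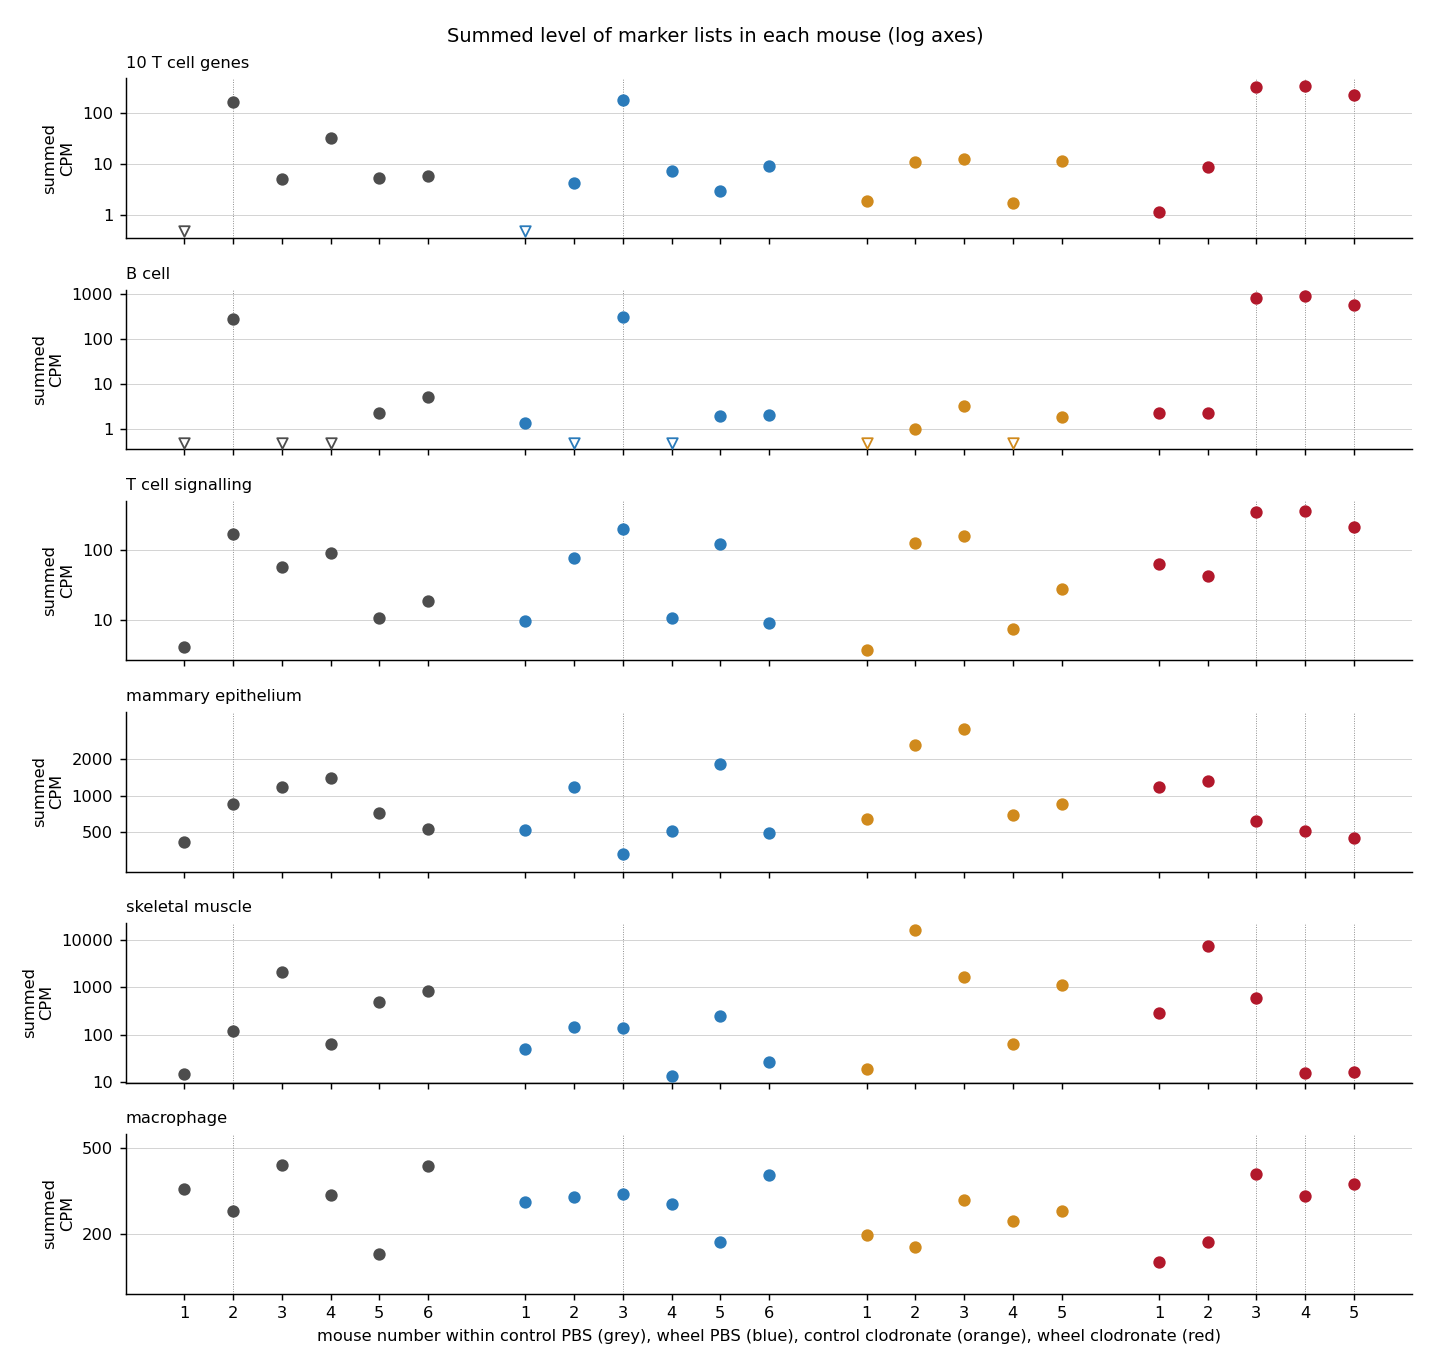
Summed CPM (log axes) of the 10 T cell genes and of 5 marker lists in each mouse, genes at the floor counted as 0 and sums of 0 drawn as open triangles, with dotted lines at the 5 mice with high T cell genes. The B cell list is high in the same 5 mice, while mammary epithelium and skeletal muscle are highest in control clodronate mice 3 and 2. Bcl11b gives 145.3 of the 156.5 CPM of the T cell signalling list in control clodronate mouse 3.

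Outside the 5 high mice, Cd3e passed 3 CPM in 4 mice. Control PBS mouse 4, control clodronate mice 2 and 3 and wheel clodronate mouse 2 had Cd3e at 3.57, 3.35, 5.65 and 5.25 CPM, while Cd4, Cd8a and Cd8b1 were at the floor in all 4. Trdc was above the floor in 11 of all 22 mice and highest in wheel clodronate mouse 2, at 12.1 CPM. The part of gamma delta T cells in the Cd3e values of the 4 mice was not tested. Cd3d was at the floor in control PBS mouse 4 and at 3.11, 1.60 and 1.92 CPM in the other 3. Cd3e gave 51.9% of 106 Cd3e and Cd3d reads in control clodronate mouse 2 (95% exact binomial interval 42.0 to 61.7), 77.9% of 104 in control clodronate mouse 3 (68.7 to 85.4) and 73.2% of 112 in wheel clodronate mouse 2 (64.0 to 81.1). In the 5 high mice this share lay between 32.4% (28.8 to 36.2) and 43.6% (41.0 to 46.2). The mice were picked for Cd3e above 3 CPM, which by itself raises this share, so the difference decides nothing. Wheel PBS mice 4 and 6, not picked in this way, gave 51.3% of 39 reads (34.8 to 67.6) and 60.4% of 53 (46.0 to 73.5). A share was taken only with both genes above the floor, which is at most 15 and 17 reads in these mice. With Cd3d at 19 and 21 reads, the share could not fall to those of the 5 high mice, so it decides nothing either. Cd3g gave 40.7%, 48.9% and 47.4% of Cd3g and Cd3d reads in control clodronate mice 2 and 3 and wheel clodronate mouse 2, in that order, and 16.6% to 22.7% in the 5 high mice. Cd3d was at 51, 23 and 30 reads in the former, where the floor is at most 16, 14 and 15 reads. A Cd3g value above the floor could not give a share as low as in the 5 high mice there, so this difference decides nothing. The basal keratin Krt14, made by mammary basal cells and by skin, was at 582.3, 1222, 1946 and 481.9 CPM in the 4 mice, but wheel PBS mouse 5 had Krt14 at 656.1 CPM with Cd3e at the floor, and control PBS mouse 3 had Krt14 at 555.1 CPM with Cd3e at 2.82 CPM. Summed skeletal muscle genes were at 64.3, 16400, 1640 and 7561 CPM in the 4 mice. Bcl11b, a T cell factor that skin also expresses, was at 89.2, 120.3, 145.3 and 40.8 CPM, and at 117.6 CPM in wheel PBS mouse 5. The part of skin or muscle in the Cd3e signal of these mice was not tested.

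**Figure D3:**
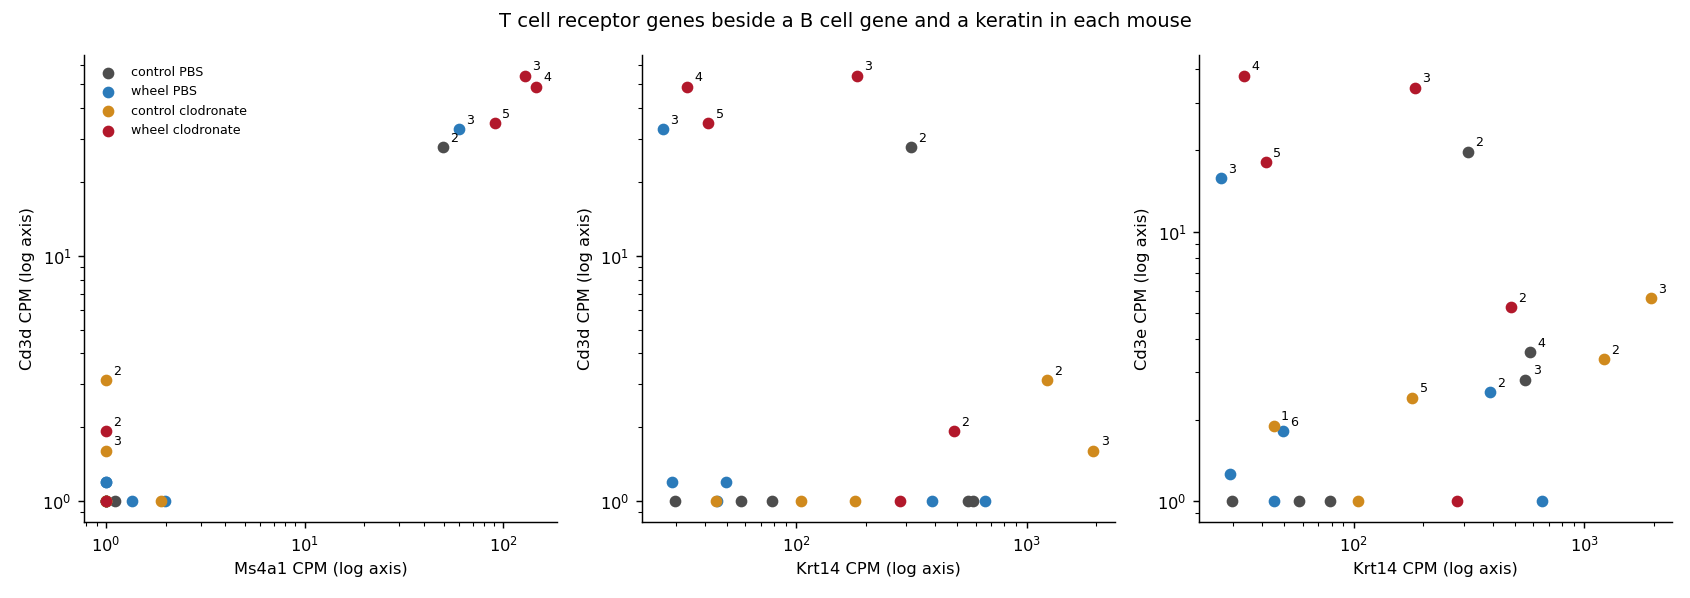
Cd3d beside the B cell gene Ms4a1, and Cd3d and Cd3e beside the keratin Krt14, in CPM on log axes, each point a mouse coloured by group, with mouse numbers beside points over 1.5 CPM on the vertical axis. The 5 mice with high Cd3d have Ms4a1 at 49.7 CPM or more, and control PBS mouse 4, control clodronate mice 2 and 3 and wheel clodronate mouse 2 have Cd3e at 3.35 to 5.65 CPM beside Krt14 at 481.9 CPM or more, while wheel PBS mouse 5 and control PBS mouse 3 have Krt14 at 656.1 and 555.1 CPM and Cd3e at 1 and 2.82 CPM.

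The balance of T cell genes differed between the high mice. Values above the floor were whole multiples of 1 read in each library, so reads could be counted. This held for 100% of the values checked, within 0.05 of a whole read, and those of the most abundant genes were not checked. The reads carry no molecular identifiers, so the intervals cover counting error only, and shares are of reads, not of cells. Cd4 gave 26.8% of 418 Cd4 and Cd8a reads in wheel PBS mouse 3 (95% exact binomial interval 22.6 to 31.3). In control PBS mouse 2 it gave 46.1% (41.6 to 50.6), and in wheel clodronate mice 3, 4 and 5 it gave 50.1% (47.0 to 53.3), 48.1% (45.0 to 51.2) and 52.3% (48.8 to 55.8). Wheel PBS mouse 3 thus lay below the other 4, whose intervals overlapped in each pair. Cd8b1 gave 40.1% of the Cd8a and Cd8b1 reads of wheel PBS mouse 3 (35.8 to 44.5) and 57.4% to 64.6% in the other 4. Foxp3 gave 36.4% of 176 Foxp3 and Cd4 reads in wheel PBS mouse 3 (29.3 to 43.9) and 24.1% of 555 in wheel clodronate mouse 5 (20.6 to 27.9). In control PBS mouse 2 and wheel clodronate mice 3 and 4 it gave 7.05% (4.16 to 11.1), 9.09% (6.84 to 11.8) and 9.03% (6.77 to 11.7). Wheel clodronate mouse 5 therefore differed from mice 3 and 4 of its own group by more than counting error.

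**Figure D4:**
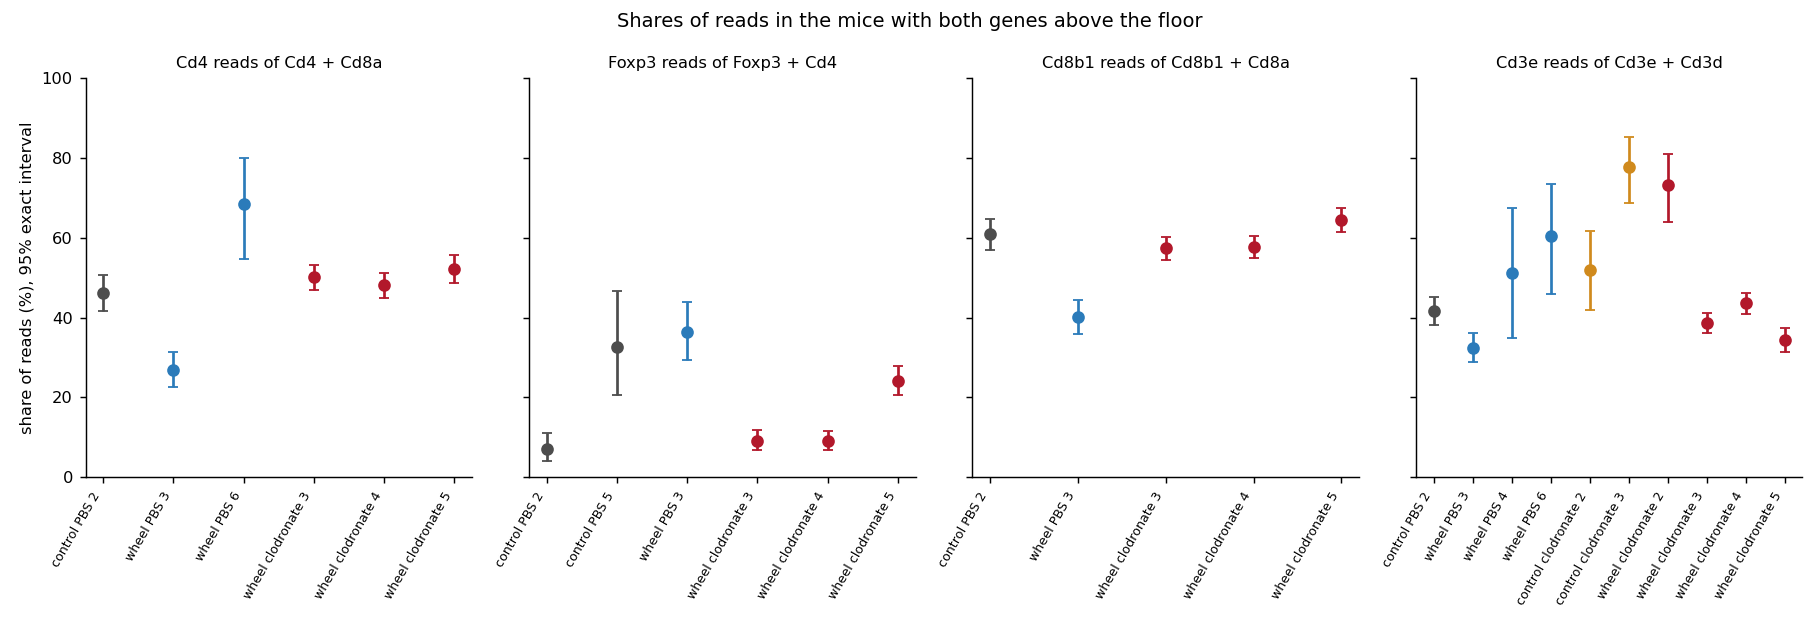
Share of reads (%) given by the first gene of each pair in every mouse with both genes above the floor, with 95% exact binomial intervals for counting error, coloured by group. Wheel PBS mouse 3 has the lowest Cd4 share, 26.8%, and the highest Foxp3 share, 36.4%, and Cd3e gives 77.9% in control clodronate mouse 3.

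The 10 patterns most like that of Cd3e, by the root mean square difference of median-centred log2(CPM + 1) values over 22 mice, included those of Bach2 (0.50), Jakmip1 (0.55), Runx3 (0.56), Cyfip2 (0.56), A530030E21Rik (0.57), Tespa1 (0.59), Cxcr5 (0.59), Skap1 (0.60) and Ikzf3 (0.61). The nearest members were Tcf7, at 0.65, and Cd3g, at 0.68, and the farthest was Lef1, at 1.10. Bach2, a repressor used by B and T cells, was above the floor in all 22 mice and reached 83.2 CPM.

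The first comparison asked how running mice differed from controls with PBS liposomes. The groups overlapped, with 1 high mouse of 6 on each side. In limma, fitted to log2(CPM + 1) with p adjusted over 15138 genes, 0 of the 10 members and 0 genes (0%) were called at an adjusted p under 0.05. At an unadjusted p under 0.05 these counts were 0 members and 744 genes (4.91%). The median change of the members was 0.0053 (log2) beside -0.085 over all genes tested. This median was 0.44 without control PBS mouse 2 and -0.52 without wheel PBS mouse 3. Cd3e differed by -0.16 (exact two-sided permutation p = 0.773, 0.929 adjusted over 5 comparisons). Its highest value was in a control mouse, 19.8 CPM, and the sign of the difference turned to 0.33 without that mouse, control PBS mouse 2. Without the 5 mice in which all 10 B cell genes were above the floor, an alternative chosen after seeing the data, Cd3e differed by -0.13, and limma called 0 members and 0 genes (0 members and 626 genes at an unadjusted p under 0.05). These are the same 5 mice that are high for the T cell genes, so that values without them describe the other 17 mice and are no test of a difference.

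The second comparison asked the same with clodronate liposomes. All 10 members had a higher mean in wheel mice, with log2 changes from 0.81 for Foxp3 to 2.64 for Cd8b1 and a median of 2.17, beside 0.0045 over all genes tested. The difference came from wheel clodronate mice 3, 4 and 5, since mice 1 and 2 lay at or near the control level for each member. The limma test called 0 of the 10 members and 1 of 15138 genes (0.00661%) at an adjusted p under 0.05, and 10 of 10 members beside 1579 genes (10.4%) had an unadjusted p under 0.05. Without wheel clodronate mouse 3, 4 or 5 the number of members with an unadjusted p under 0.05 was 6, 5 or 8. The 10 members share the same high mice and are not independent observations. Cd8b1 differed by 2.64 ± 0.87 (SE, limma adjusted p = 0.263), Cd4 by 2.21 ± 0.72 (0.263), Cd3d by 2.54 ± 0.93 (0.301) and Foxp3 by 0.81 ± 0.31 (0.315). The single gene called, Gm7536, was at the floor in the 5 control mice and at 1.93 to 2.504 CPM in the 5 wheel mice.

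Cd3e was higher by 1.83 (log2) in wheel than in control clodronate mice (exact two-sided permutation p = 0.103, 0.18 adjusted), with 3 of 5 wheel mice above every control mouse. The outcome rested on single mice. Without wheel clodronate mouse 3, 4 or 5 the difference was 1.46, 1.43 or 1.68, each with an exact permutation p of 0.175. Without wheel clodronate mouse 1, in which Cd3e was at the floor, the difference was 2.496 with an exact permutation p of 0.0159 (0.0397 adjusted) and limma called 118 genes. Without wheel clodronate mouse 2 limma called 236 genes, Cd4 and Cd8b1 among them (limma adjusted p = 0.0455 and 0.0492). Over 35 alternatives the adjusted p ran from 0.0455 to 0.986 for Cd4 and from 0.0492 to 1.0 for Cd8b1, and over 31 from 0.0397 to 0.952 for Cd3e. Without the 5 mice with all B cell genes above the floor, 2 wheel and 5 control mice were left and Cd3e differed by -0.011. This is no test of a difference, since the high T cell values were removed with those mice. Limma then called 12 genes and 0 of 10 members.

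The third comparison asked how clodronate and PBS liposomes differed in control mice. The 8 macrophage genes had a median summed level of 229.6 CPM after clodronate and 313.2 CPM after PBS liposomes and a median difference of -0.53, and 0 of 8 were called in limma (2 of 8 lower at an unadjusted p under 0.05). Limma called 0 of the 10 members and 0 genes (0%), and 0 members and 1058 genes (6.99%) had an unadjusted p under 0.05. The members' median change was -0.42 beside -0.10 over all genes tested. Without control PBS mouse 2 these medians were -0.0026 and -0.105. No control clodronate mouse was among the 5 high mice, and 1 of 6 control PBS mice was. Cd3e differed by -0.08 (exact two-sided permutation p = 0.929, 0.929 adjusted), and 4 of 5 clodronate mice and 3 of 6 PBS mice were above the floor. Without control PBS mouse 2, the high mouse of this comparison, it differed by 0.41 (exact permutation p = 0.333).

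The fourth comparison asked the same in running mice. The 8 macrophage genes had a median summed level of 298.8 CPM after clodronate and 288.2 CPM after PBS liposomes. Their median difference was -0.18, with 2 of 8 higher, and 0 of 8 were called in limma or had an unadjusted p under 0.05. All 10 members had a higher mean after clodronate, with a median change of 1.80 beside 0.0002 over all genes tested, from 3 of 5 clodronate mice against 1 of 6 PBS mice. Limma called 0 of the 10 members and 1 gene (0.00661%), again Gm7536, and 8 of 10 members beside 1759 genes (11.6%) had an unadjusted p under 0.05. This count of members was 0 without wheel clodronate mouse 3 or 4, 2 without mouse 5, 4 without wheel PBS mouse 1, 2 or 5, and 5 without wheel PBS mouse 4 or 6. It was 10 without wheel PBS mouse 3 or wheel clodronate mouse 1 or 2, 3 with only the groups compared in the fit, and 5 with no filter or with robust eBayes. With the place of a mouse in the label numbers as a replicate block, chosen after seeing the data, limma called 0 genes, and 5 of 10 members beside 1674 genes had an unadjusted p under 0.05. Cd3e was higher by 1.90 (exact two-sided permutation p = 0.0649, 0.18 adjusted), and by 2.57 without wheel clodronate mouse 1 (0.0397 adjusted; 0.0397 to 0.952 over 31 alternatives). Without the 5 mice, again no test of a difference, it differed by 0.52, and limma called 14 genes and 0 members. This comparison shares the wheel clodronate mice with the second and the wheel PBS mice with the first, so the sets of values are not independent.

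The interaction, the difference with running after clodronate minus that after PBS liposomes, was positive for all 10 members, with a median of 2.25 beside 0.09 over all genes tested. In limma 0 of 10 members and 0 genes (0%) were called, and 3 of 10, Cd4, Cd8b1 and Lef1, beside 1147 genes (7.58%) had an unadjusted p under 0.05. This count of members was 0 without wheel clodronate mouse 3 or 4, 1 without mouse 5 or control PBS mouse 2, and 5 without control PBS mouse 1 or 5. A pseudocount of 5 and the block by place in the label numbers also gave 5 members. It was 9 without wheel clodronate mouse 1 or 2 and 10 without wheel PBS mouse 3. For Cd3e the interaction was 1.99 (exact two-sided permutation p = 0.108 over 232848 arrangements, 0.18 adjusted). Without the 5 mice, which is no test of a difference, it was 0.12. A different response to running under the 2 liposomes was thus not detected for any member.

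**Figure D5:**
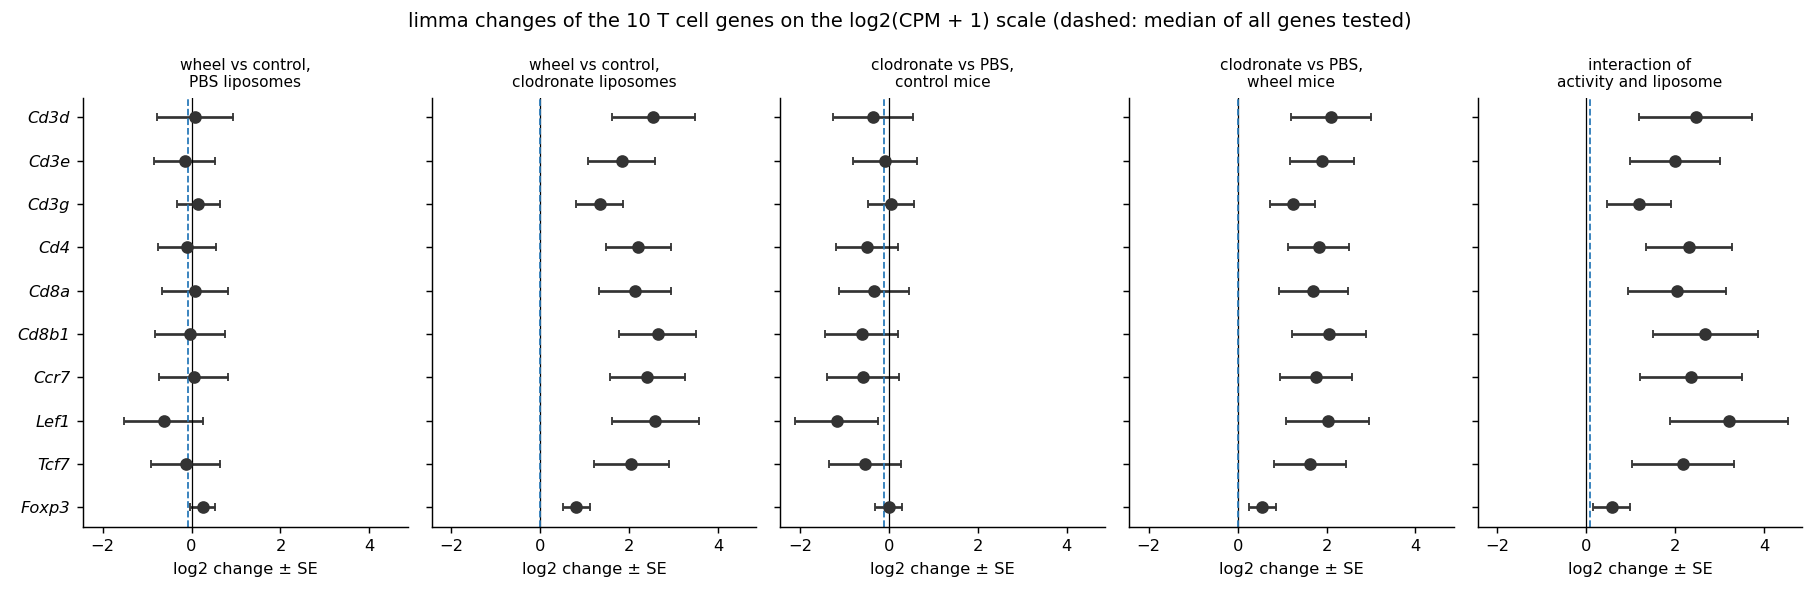
Difference of each T cell gene with its standard error in limma, in log2 units of CPM + 1, in the 4 comparisons and the interaction, with dashed lines at the median of the 15138 genes tested. The members lie between 0.81 and 2.64 for running with clodronate liposomes and between -0.62 and 0.25 for running with PBS liposomes, and 0 of 10 had an adjusted p under 0.05 in any panel.

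The other lists, counted without the members they hold, gave 0 calls in limma at an adjusted p under 0.05. Of all genes tested, 10.4% had an unadjusted p under 0.05 for running with clodronate liposomes. For running with clodronate liposomes, 10 of 10 B cell genes were higher at an unadjusted p under 0.05, with a median difference of 3.32, but Cd79a, Cr2 and Cd22 among them were tested solely because they were above the floor in the 5 high mice. The same holds for Zap70 and Cd6 among the signalling genes. Higher in the same way were 4 of 5 T cell receptor genes (2.63), 11 of 12 signalling genes (1.77), 4 of 6 naive and homing genes (1.34), 5 of 7 effector genes (0.78) and 1 of 5 regulatory genes (0.86). These genes share the high mice with the members. Dendritic cell genes numbered 1 of 7, NK cell genes 1 of 2, and macrophage, mammary epithelium, skeletal muscle and red blood cell genes 0 of 8, 0 of 6, 0 of 4 and 0 of 3. Of 6 adipocyte genes and of 3 helper programme genes 1 each was lower. The single gene tested of the lymph node stroma list, Cxcl13 (2.98), and of the T cell inhibition list, Tox (1.83), was higher at an unadjusted p under 0.05. Whether the B cell genes and the T cell genes have 1 source in these mice was not tested.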

How the data were processed

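The 22 libraries (QuantSeq 3′ FWD, HiSeq) were mapped to GRCm38 with STAR 2.5.3a according to the submitters' processing notes; the annotation and strand setting are not given in the sources used here, so reads of a gene and of an antisense gene cannot be told apart. The deposited signal is CPM of all reads of a library, with values below 1 set to 1 by the authors. Unmapped, multimapping, feature-less and ambiguous reads count in the total (multimapping 16.6% to 19.9%, unmapped 4.13% to 8.66%, no feature 11.5% to 17.8%) and were left out of the tests. For a repeated symbol, the entry of highest mean was kept. No 2 libraries of 1 group agreed within sampling noise.

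Read totals were recovered from the steps between values. The 15138 genes above the floor in 5 mice or more, the 10 members included, were tested with limma 3.58.1 (R 4.3.3), eBayes with a variance trend, on log2(CPM + 1), which understates changes of low genes, with 4 group means and Benjamini-Hochberg adjustment. Cd8b1 and Foxp3, each above the floor in 6 mice, passed mainly through the 5 high mice. Cd3e was tested by exact permutation of labels (Python 3.11.15), the interaction within each liposome. Named genes are the members, up to 4 genes of highest mean per marker list, the 10 genes nearest to Cd3e and called genes. The members and lists were chosen with earlier results of these data known. The alternatives were other pseudocounts, scalings, filters and fits, a block for the replicate number and the omission of single mice; omitting the 5 mice with all B cell genes above the floor, and a block by place in the label numbers, were chosen after seeing the data. Mice are separate animals of 1 experiment.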

Additional observations from a re-analysis of the deposited data

Results flagged for a closer look

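In single groups a member was far from the rest when the gap between the outermost mouse and its neighbour, divided by the range of the group on the log2(CPM + 1) scale, passed Dixon's 95% critical value for that number of mice. Chance alone passes about 1 in 20 groups of continuous values, and that rate does not apply here: where all other mice are at the floor, any value above it has a ratio of 1.0 and passes, however low. Of 38 combinations of gene and group with any spread 20 passed, 9 of them in this way. The members also share the same high mice, so these are a few mice seen repeatedly.

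Control PBS mouse 2 was the highest of its group for Cd3d, Cd3g, Cd8a and Cd8b1 (ratio 1.0 each, the other 5 mice being at the floor), Cd4 (0.775), Tcf7 (0.766) and Cd3e (0.647). Wheel PBS mouse 3 was the highest of its group for Foxp3 (1.0), Cd8a (0.996), Lef1 (0.996), Cd3d (0.968), Tcf7 (0.863), Cd8b1 (0.858), Ccr7 (0.815), Cd3e (0.732) and Cd4 (0.694). In the control clodronate group the values that passed were low ones above a group otherwise at the floor, each with a ratio of 1.0: Cd4 in mouse 4 (1.79 CPM, 29 reads), Cd8a and Ccr7 in mouse 5 (2.64 and 2.41 CPM) and Lef1 in mouse 3 (1.54 CPM). None of the 10 genes passed in the wheel clodronate group, where 3 of 5 mice were high.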

How the results depend on the processing

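The counts of 0 members called by limma held under each alternative run except without wheel clodronate mouse 2, where running with clodronate liposomes gave 2. Leaving out 1 mouse gave 0 to 236 genes called for running with clodronate liposomes (236 without wheel clodronate mouse 2, 118 without mouse 1, 0 without mouse 5 or control clodronate mouse 1, 2, 3 or 4) and 0 to 2 members, 0 to 38 genes for clodronate in control mice (38 without control clodronate mouse 1, 1 without control PBS mouse 5 or 6) and 0 to 51 for clodronate in wheel mice (51 without wheel clodronate mouse 2, 28 without mouse 1, 0 without mouse 5, 3 without control PBS mouse 2, 2 without control clodronate mouse 2). Cd3e then differed by 1.43 to 2.496, -0.31 to 0.41 and 1.499 to 2.57 in these comparisons, and by -0.62 to 0.33 for running with PBS liposomes.

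For running with clodronate liposomes, in place of 1 gene, limma called 3 with no filter and 0 for genes averaging 5 CPM or more, with robust eBayes, with the replicate block or with only the groups compared (1063 to 1553 at an unadjusted p under 0.05). For clodronate in wheel mice it called 3 with a pseudocount of 5 or upper-quartile scaling, 4 without a filter, 2 with scaling to assigned reads or without a variance trend, and 0 under the same 4 settings (1283 to 1691 unadjusted). The interaction gave 2 genes without a filter. With the replicate block the other comparisons stayed at 0 genes called (707 to 1109 unadjusted), and paired sign flips gave Cd3e differences of -0.16, 1.83, -0.27 and 1.85 (exact permutation p 0.125 or more, where 0.125 or 0.0625 is the smallest possible, so none could pass 0.05). The labels number the mice serially and lack 2 numbers in the clodronate groups, so the last clodronate mice hold place 6 and not 5. A replicate block by this place, chosen after seeing the data, gave 0 genes called in each comparison (776 to 1674 unadjusted) and a paired Cd3e difference of 1.75 for clodronate in wheel mice (exact permutation p 0.125, the smallest possible there). Mice of the same place deviated together in each pair for clodronate in wheel mice (correlations 0.106 to 0.401), but not in the other comparisons (-0.252 to 0.517). Nothing in the labels pairs the mice.

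Cd3e for clodronate in control mice turned to 0.016 without a pseudocount and to 0.31 as a difference of medians; the cause was not tested. Without the 5 mice, chosen after seeing the data, it was 0.41 there and -0.011 for running with clodronate liposomes, where 12 genes were called, and 14 for clodronate in wheel mice. For running with clodronate liposomes the members then gave -0.011 (Cd3d), -0.011 (Cd3e in limma), -0.16 (Cd3g), -0.096 (Cd4), -0.17 (Cd8a), -0.15 (Ccr7), -0.0092 (Lef1) and -0.35 (Tcf7), since the high mice were gone. Upper-quartile scaling moved the median of all genes in the interaction from 0.09 to -0.0092 and that of the members from 2.25 to 2.17. Depth limits genes at the floor, where up to 20 reads go unseen.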
